A study of Mus musculus with 15 samples.

Results

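Fan1 encodes a DNA repair nuclease, and it is described here together with 7 genes of mismatch repair and of the Fanconi crosslink repair pathway: Pms1, Pms2, Msh3, Msh6, Fancd2, Fanci and Fancl. The 8 genes were taken by name from the 54736 genes of the expression table. No measured value entered that rule. RNA was sequenced from medial prefrontal cortex punches; the mice were C57BL/6 males, 8 to 10 weeks old. Mice heterozygous for Df(h15q13), a deletion on chromosome 7 that models the human 15q13.3 microdeletion and removes Chrna7, Otud7a, Klf13, Trpm1, Mtmr10 and Fan1 from one copy of the chromosome, were compared with wild-type littermates. The libraries titled KO (n = 8) hold the heterozygous animals, which keep 1 intact copy, and the libraries titled WT (n = 7) hold the littermates. The series' design text gives 7 deletion and 8 wild-type mice, the reverse of the titles, and the titles were used. In every library titled KO, the levels of Chrna7, Otud7a, Klf13 and Mtmr10 were lower than in every library titled WT. Because Fan1 is lost together with its neighbours in every KO animal, an effect of Fan1 alone cannot be told apart from an effect of the other deleted genes.

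FAN1 is a structure-specific nuclease that is recruited to DNA interstrand crosslinks by monoubiquitinated FANCD2, the activated partner in the FANCD2-FANCI clamp, and FANCL is the ubiquitin ligase subunit that places this mark. Mismatch repair begins with MutS dimers, of which MSH6 forms the one that reads base mismatches and small loops and MSH3 the one that reads larger loops. It continues with MutL dimers, whose alternative subunits include the nuclease PMS2 and the catalytically silent PMS1. In human and mouse studies of trinucleotide repeat diseases, FAN1 restrains and MSH3 and PMS1 promote the lengthening of repeats in neurons, which is why their levels in adult brain are of interest.

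The values are TPM, each transcript's length-scaled share of its library, and can be compared between genes. Between 18375 and 18748 genes reached 1 TPM in a library, and the pairwise correlation of libraries over tested genes lay between 0.9451 and 0.9815. Read depth cannot be recovered from TPM and is unknown here, so errors are those seen among libraries. The tissue label was checked on 8 cortical neuron genes including Slc17a7, Tbr1 and Gad1, all of which were above 30 TPM in the mean over libraries (lowest 31.7). Of the KO libraries, KO 1 and KO 8 stood apart in oligodendrocyte genes: the summed level of 10 such genes, all detected, was 923 TPM in KO 1 and 1390 TPM in KO 8, against 279 to 415 TPM in the other 6 KO libraries and 409 to 558 TPM in WT. Values that moved by over 1.5 times without them are given both ways. The labels do not name individual animals, so p-values measure the spread between libraries.

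Fan1 (ENSMUSG00000033458, chromosome 7, 64346758 to 64374095 on the minus strand, mm10) was the one gene of the set that passed the test, and it fell to 43.2% of its WT level. Its level ran from 2.69 TPM in WT 6 over a median of 2.91 to 3.80 TPM in WT 1, and from 0.740 TPM in KO 8 over a median of 1.5 to 1.83 TPM in KO 6. The groups did not overlap, which held for 0.134% of all 18656 tested genes. The means were 3.14 ± 0.465 TPM (SD, n = 7) in WT and 1.36 ± 0.400 TPM (SD, n = 8) in KO, and the log2 change was -0.83 ± 0.12 (SE) on the log2(TPM + 1) scale, 95% interval -1.07 to -0.58 (limma adjusted p = 0.00792, Benjamini-Hochberg over all tested genes). In whole tissue, fewer cells of a type and less RNA per cell cannot be told apart. Over all tested genes 0.0268% passed the same threshold, and 1 of the 7 tested genes of the set did. The genes that passed were 5, all lower in KO: Fan1, Chrna7, Otud7a, Klf13 and Mtmr10, which the deletion removes together. Fan1 had the highest adjusted p of these, against 0.00136 for Chrna7, 4.15e-05 for Otud7a and 2.04e-06 for Klf13 and Mtmr10 (limma).

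The KO libraries differed in their measured share of Fan1. Relative to the WT mean they ranged from 23.5% in KO 8 and 27.9% in KO 1 over 35.2% in KO 3 to 58.1% in KO 6. KO 8 and KO 1, the lowest libraries for Fan1, are the libraries with the highest oligodendrocyte gene levels, and the part of those levels in the result was not tested. Without both, the KO mean was 1.54 ± 0.248 TPM (SD, n = 6), which is 49.0% of WT, and the log2 fold change was -0.70 (limma adjusted p = 0.0132). The spread of Fan1 relative to its mean was larger in KO, with a coefficient of variation of 29.5% against 14.8% in WT; the medians over all tested genes were 17.2% and 13.9%. Fan1 is a low gene in this tissue, at the 14.8th percentile of tested genes by mean TPM, and in KO 1 and KO 8 it lay under 1 TPM. With read depth unknown, counting error at such levels cannot be told apart from differences between animals.

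**Figure D1:**
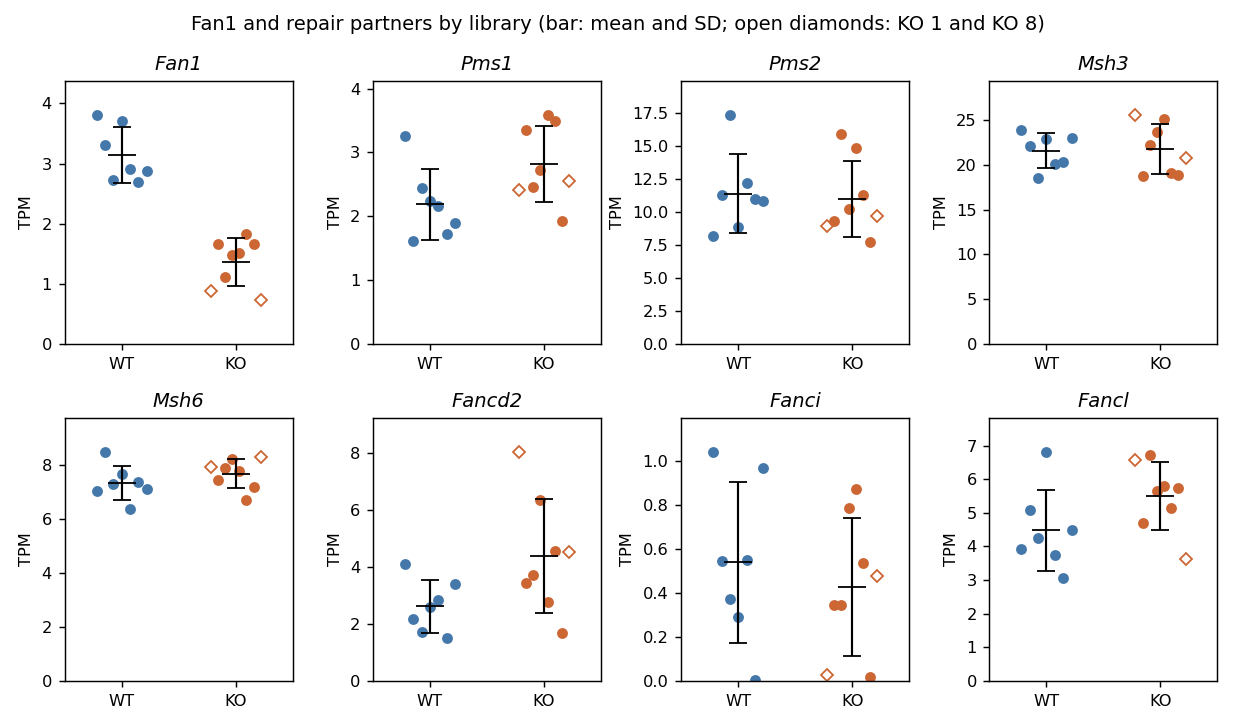
TPM of the 8 genes in each library, with WT (n = 7) in blue and KO (n = 8) in orange; the bars give the mean and SD, and open diamonds mark KO 1 and KO 8. In the Fan1 panel every KO library lies below the lowest WT library (2.69 TPM), while the groups overlap in the other 7 panels.

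Fan1 stood at about the same share of WT as the genes lost with it. Mtmr10, a myotubularin-related gene and the nearest coding gene on the other side of a 5951 bp gap, was at 38.7% of WT, Otud7a, which encodes a deubiquitinase, at 44.0%, Chrna7, the α7 nicotinic receptor subunit gene, at 46.5%, and Klf13, a transcription factor gene, at 48.4%. Trpm1, a channel gene, was listed at 0.289 ± 0.182 TPM (SD, n = 7) in WT and 0.113 ± 0.0799 TPM (SD, n = 8) in KO and was too low to be tested. Within each library, the log2 TPM of Fan1 minus the mean log2 TPM of Chrna7, Otud7a, Klf13 and Mtmr10 ranged from -3.07 over a median of -2.74 to -2.17 in WT and from -3.67 in KO 8 over a median of -2.59 to -2.14 in KO 7. The group ranges overlapped, and the means of -2.64 ± 0.328 (SD, n = 7) and -2.72 ± 0.490 (SD, n = 8) differed by -0.08 ± 0.21 (SE; exact two-sided permutation p = 0.731, the same when adjusted over the 4 ratios tested). Its sign depended on KO 8 and on the pseudocount: the difference was 0.05 without KO 8 and 0.12 at a pseudocount of 0.5.

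The gene on the far side of Fan1 did not pass the test. Mphosph10, which encodes a nucleolar protein and lies 2431 bp beyond the 5′ end of Fan1 on the same strand, is not one of the deleted genes. It was at 15.9 ± 1.60 TPM (SD, n = 7) in WT and 16.8 ± 3.36 TPM (SD, n = 8) in KO, with 4 of 8 KO libraries above the WT mean and a log2 change of 0.06 (limma adjusted p = 0.803). The ratio of Fan1 to Mphosph10 in a library ran from 0.153 to 0.279 in WT and from 0.0473 to 0.132 in KO. In the gap between Fan1 and Mtmr10 lies most of Gm20457, an antisense transcript that is annotated on the strand of Fan1 (64337550 to 64345964) and overlaps the end of Mtmr10. It was at 2.26 ± 0.362 TPM (SD, n = 7) in WT and 1.36 ± 0.357 TPM (SD, n = 8) in KO, 60.4% of WT, short of the threshold (log2 fold change -0.47, limma adjusted p = 0.241). Without a statement on strand in the sources used here, reads of Gm20457 and of the overlapped end of Mtmr10 cannot be told apart.

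**Figure D2:**
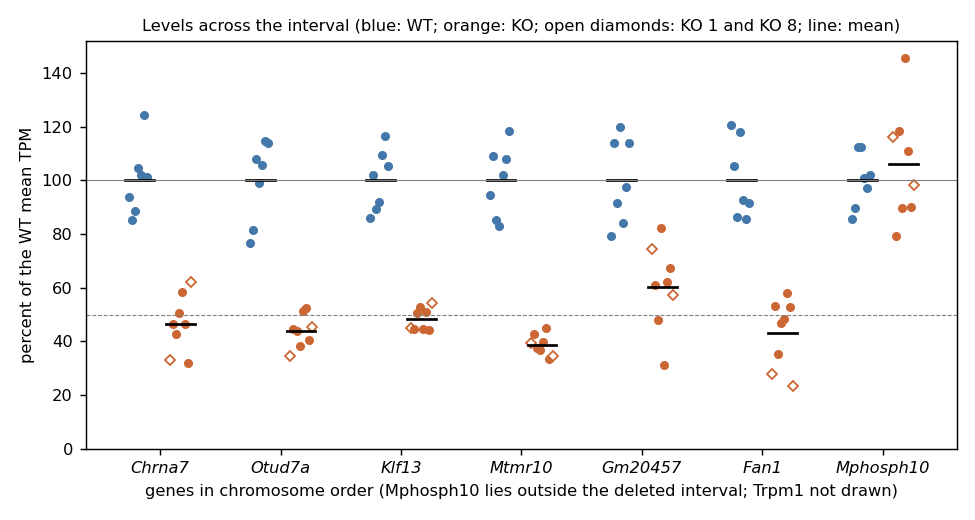
Each library's TPM as a percent of the WT mean of the same gene, for the tested genes of the interval in chromosome order and for Mphosph10 beside it; WT is blue, KO orange, open diamonds are KO 1 and KO 8, lines are means, and the dashed line marks 50%. KO means lie between 38.7% and 60.4% up to Fan1, and the Mphosph10 points of both groups overlap.

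The start of Fan1 is shown because Fan1 is the gene of the set that passed the test. The RefSeq window (GRCm38.p6, chr7:64374007-64374306, minus strand) covers 250 bases before and 50 bases after the annotated start. It was searched on both strands for 4 motifs. The GC box, bound by SP1-family factors, was taken as GGGCGG. The CCAAT box, bound by the factor NF-Y, was taken by the letters of its name. For the TATA box of the core promoter the letters TATAAA were used. The motif of the cell-cycle factors of the E2F family was searched as TTTNGCGC, where N is any base. None of the 4 matched, so all letters are in lower case.
Fan1: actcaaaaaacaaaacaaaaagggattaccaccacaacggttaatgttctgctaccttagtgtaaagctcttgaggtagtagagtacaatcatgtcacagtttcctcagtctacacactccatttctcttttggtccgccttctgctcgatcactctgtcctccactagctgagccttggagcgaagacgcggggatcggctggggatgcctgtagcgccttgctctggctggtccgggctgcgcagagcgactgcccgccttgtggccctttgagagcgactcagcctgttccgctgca
The window had a GC content of 53.3% and 14 CpG, against medians of 52.7% and 7 over 32851 windows of the same length. A GC box was found in 35.7% of those windows, a CCAAT box in 37.4%, a TATA box in 13.6% and the E2F-type motif in 1.38%. A match or its absence describes these letters only.

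The 4 mismatch repair genes did not pass the test, and Msh3 and Msh6 had the narrowest intervals. Msh3 (ENSMUSG00000014850, chromosome 13, 92211872 to 92355003), the subunit that reads larger loops, was the most abundant of the 8 genes. It ran from 18.5 TPM over a median of 22.1 to 23.9 TPM in WT and from 18.7 TPM over a median of 21.5 to 25.5 TPM in KO. The groups overlapped over nearly their whole range, with 4 of 8 KO libraries above the WT mean. The means were 21.5 ± 1.96 TPM (SD, n = 7) and 21.7 ± 2.79 TPM (SD, n = 8), and the log2 fold change of 0.01 had a 95% interval of -0.17 to 0.18 (limma adjusted p = 0.974), which on that scale spans 89.1% to 113% of WT. Its sign turned negative under median-of-ratios scaling and quantile normalization.

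Msh6 (ENSMUSG00000005370, chromosome 17, 87975062 to 87990892), the subunit for base mismatches, varied least. Its values ran from 6.37 TPM over a median of 7.27 to 8.46 TPM in WT and from 6.70 TPM over a median of 7.82 to 8.27 TPM in KO, so that all 8 KO libraries lay within the WT range. Its coefficient of variation was 8.75% in WT and 7.00% in KO, under the medians of all tested genes. The log2 fold change was 0.06 with a 95% interval of -0.08 to 0.20 (limma adjusted p = 0.705). In terms of TPM + 1, that interval spans 94.6% to 115% of WT. The ratio of Msh3 to Msh6 lay between 2.54 and 3.41 in WT libraries and between 2.50 and 3.24 in KO libraries. On the log2(TPM + 1) scale it differed by -0.05 ± 0.07 (SE) between the groups (exact two-sided permutation p = 0.484, adjusted over 4 ratios 0.646).

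Pms2 (ENSMUSG00000079109, chromosome 5, 143909964 to 143933968), the MutL subunit with the nuclease site, was at 8.18 TPM in the lowest WT library, 11.0 TPM in the median and 17.3 TPM in the highest. In KO it was at 7.73, 9.91 and 15.9 TPM. The groups overlapped, with 7 of 8 KO libraries in the WT range. The log2 fold change was -0.05 with a 95% interval of -0.38 to 0.28 (limma adjusted p = 0.902), and it turned to 0.05 without WT 3, the highest WT library, and to 0.01 without KO 7, the lowest KO library. The annotated gene Gm42421 overlaps the end of Pms2 by 5794 bp on the same strand, at 2.41 ± 1.80 TPM (SD, n = 7) in WT and 2.73 ± 1.94 TPM (SD, n = 8) in KO, and how the authors' quantification split reads between the 2 genes is not given in the sources used here.

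Pms1 (ENSMUSG00000026098, chromosome 1, 53189187 to 53297018), the MutL subunit without nuclease activity, was a low gene with a higher mean in KO that did not pass the test. It ran from 1.61 TPM over a median of 2.16 to 3.26 TPM in WT and from 1.93 TPM over a median of 2.64 to 3.58 TPM in KO. The groups overlapped, 7 of 8 KO libraries were above the WT mean and 3 above the highest WT library. The log2 fold change was 0.26 ± 0.12 (SE; limma adjusted p = 0.418, unadjusted p = 0.0468). An unadjusted p under 0.05 was reached by 11.9% of all tested genes, by 5.68% with a higher and by 6.21% with a lower mean in KO, and by 3 of the 7 tested genes of the set.

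Pms2 exceeded Pms1 in every library. The ratio of Pms2 to Pms1 ran from 2.51 over a median of 5.69 to 7.04 in WT and from 2.78 over a median of 3.75 to 6.45 in KO. The log2 level of Pms1 relative to Pms2 on the log2(TPM + 1) scale was higher in KO by 0.31 ± 0.20 (SE), with 7 of 8 KO libraries above the WT mean, and this did not pass (exact two-sided permutation p = 0.134, adjusted over 4 ratios 0.269). It depended on WT 1, the WT library with the highest Pms1 and lowest Pms2: without it the difference was 0.45 and the adjusted exact permutation p 0.0386.

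The 3 Fanconi genes spanned a wide range of levels and 0 passed the test (limma). Fancl (ENSMUSG00000004018, chromosome 11, 26386135 to 26471876), the ligase gene, ran from 3.05 TPM over a median of 4.25 to 6.81 TPM in WT and from 3.64 TPM over a median of 5.70 to 6.73 TPM in KO. All 8 KO libraries lay within the WT range and 7 lay above the WT mean. The log2 fold change was 0.26 with a 95% interval of -0.02 to 0.54 (limma adjusted p = 0.447). The lowest KO value was that of KO 8.

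Fancd2 (ENSMUSG00000034023, chromosome 6, 113531682 to 113597017), whose product recruits FAN1, had the highest KO mean relative to WT of the 8 genes, 168%, and did not pass. In WT it ran from 1.49 TPM in WT 6 over a median of 2.59 to 4.09 TPM in WT 1. In KO it ran from 1.69 TPM in KO 7 over a median of 4.12 to 8.03 TPM in KO 1, with 6.34 TPM in KO 4. The groups overlapped, and 4 KO libraries lay above the highest WT library. The means were 2.61 ± 0.922 TPM (SD, n = 7) and 4.38 ± 2.01 TPM (SD, n = 8), a log2 change of 0.53 with a 95% interval of 0.05 to 1.0 (limma adjusted p = 0.388, unadjusted p = 0.0311). Without KO 1 and KO 8 the KO mean was 3.75 ± 1.59 TPM (SD, n = 6), and the log2 change 0.37 (limma adjusted p = 0.547). Fancd2 was the most variable tested gene of the set, with coefficients of variation of 35.3% in WT and 46.0% in KO.

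Fanci (ENSMUSG00000039187, chromosome 7, 79391929 to 79450264), the gene of the other clamp subunit, lies on the same chromosome as the deletion but outside it. It was under the filter of 1 TPM and is reported as low. It reached 1 TPM in 1 of 15 libraries, WT 1 at 1.04 TPM, and was at 0.00497 TPM in WT 6, 0.0167 TPM in KO 7 and 0.0251 TPM in KO 1. The medians were 0.547 TPM in WT and 0.412 TPM in KO, and the groups overlapped. In the fit without a filter the log2 fold change was -0.10 with a 95% interval of -0.46 to 0.25 (limma adjusted p = 0.836). It was -0.04 without KO 1 and KO 8 and ran from -0.20 without WT 6 to -0.03 without WT 1. Such values may rest on few reads. Polg, at 39.7 TPM in WT, overlaps the end of Fanci by 4034 bp on the opposite strand, and without a stated strand setting reads there cannot be told apart, which also touches the ratio of Fancd2 to Fanci.

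The log2 level of Fancd2 relative to Fanci was higher in KO at a pseudocount of 1. The call held in some other settings and not in others. On the log2(TPM + 1) scale Fancd2 relative to Fanci ran from 0.99 over a median of 1.31 to 1.48 in WT and from 1.01 in KO 5 over a median of 1.83 to 3.14 in KO 1. The groups overlapped, with 7 of 8 KO libraries above the WT mean. The difference was 0.63 ± 0.23 (SE; exact two-sided permutation p = 0.00715, adjusted over 4 ratios 0.0286). It was 0.75 with an adjusted exact p of 0.041 at a pseudocount of 0.5, 0.97 with an adjusted exact p of 0.195 at a pseudocount of 0.1, and 0.41 with an adjusted exact p of 0.107 without KO 1 and KO 8, and 7 of 15 fits without 1 library also lost the call, those without WT 2, WT 3, KO 1, KO 3, KO 4, KO 6 or KO 8 (adjusted exact p = 0.0536 to 0.0586). Fanci, the lower term, was near 0 in WT 6, KO 1 and KO 7, and in WT 6 and KO 1 the TPM ratio was 299 and 320. With a pseudocount of 1, Fancd2 alone changed by 0.53 and Fanci by -0.10, so the difference was mostly that of Fancd2. That change of Fancd2 did not pass over all tested genes (limma adjusted p = 0.388). The ratio was adjusted over 4 ratios only, which were chosen with earlier results known.

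**Figure D3:**
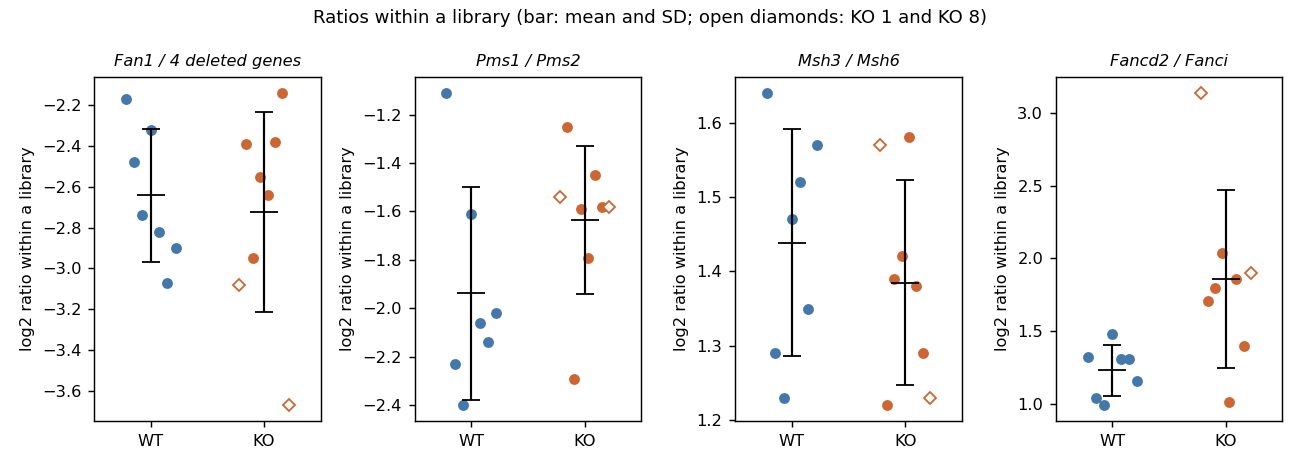
Log2 ratios within each library: Fan1 over the mean of the other tested deleted genes (log2 TPM), and Pms1 to Pms2, Msh3 to Msh6 and Fancd2 to Fanci (differences of log2(TPM + 1)); bars are mean and SD, open diamonds KO 1 and KO 8. The groups overlap in all 4 panels, and the Fancd2 to Fanci panel has KO 1 at 3.14, above all other libraries.

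**Figure D4:**
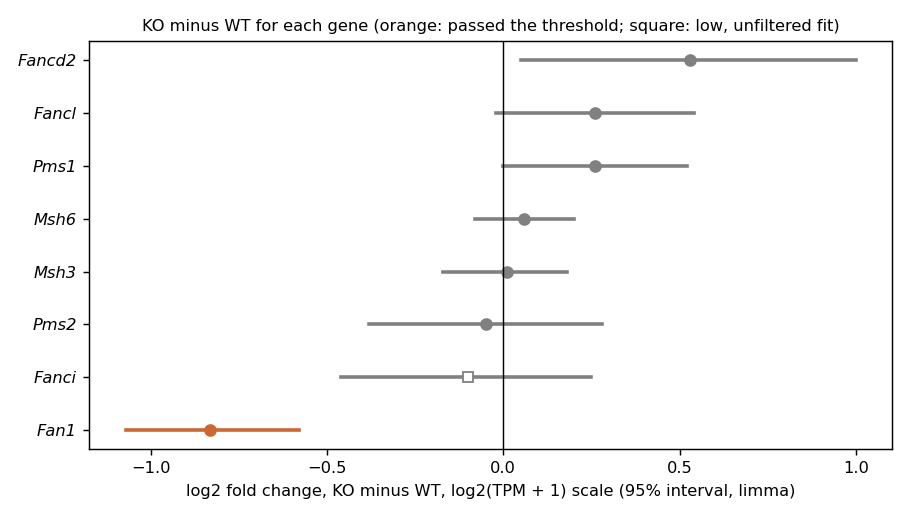
Log2 fold change of KO minus WT with its 95% interval for each of the 8 genes, on the log2(TPM + 1) scale; orange marks a gene past the threshold and the open square the low gene Fanci. The interval of Fan1 (-1.07 to -0.58) lies wholly below 0, and those of Msh3 and Msh6 are the narrowest.

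In WT cortex the levels per length ran in the order Msh3 (21.5 TPM), Pms2 (11.4), Msh6 (7.32), Fancl (4.48), Fan1 (3.14), Fancd2 (2.61), Pms1 (2.19) and Fanci (0.538 TPM). The ranges of neighbours in this order did not overlap between Msh3 and Pms2 and between Pms1 and Fanci. Pms2 was above Msh6, Msh6 above Fancl and Fancl above Fan1 in all 7 WT libraries, although their ranges overlapped. Fan1 and Fancd2, and Fancd2 and Pms1, were in this order in 5 of 7 WT libraries and are not separated beyond their spread. In KO, Fancd2 was above Fan1 in all 8 libraries. Of the 7 tested genes Msh3 alone lay above the median level of all tested genes, which was 13 TPM.

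Nearby genes on the opposite strand were examined beside Pms1, Pms2 and Fancd2. Pms1 starts 76 bp from Ormdl1, which encodes a regulator of sphingolipid synthesis, Pms2 starts 116 bp from Aimp2, a scaffold gene of the aminoacyl-tRNA synthetase complex, and Fancd2 starts 29 bp from Emc3, a gene of the endoplasmic reticulum membrane complex. Emc3 was at 58.9 ± 2.93 TPM in WT beside 2.61 TPM for Fancd2 (SD, n = 7). None of these 3 neighbours passed the test, with log2 fold changes of 0.16 for Ormdl1, 0.09 for Aimp2 and 0.01 for Emc3 (limma adjusted p = 0.536, 0.564 and 0.975). The sign of Emc3 turned under both other scalings. Of the neighbours that overlap a gene of the set end to end, Fbxo11 beside Msh6 was at 76.9 ± 5.85 TPM and Polg beside Fanci at 39.7 ± 4.57 TPM in WT (SD, n = 7), against 7.32 and 0.538 TPM for the genes they overlap. Their log2 fold changes were -0.01 and -0.06 (limma adjusted p = 0.941 and 0.828). Of the other nearest coding genes, Rlbp1 beside Fanci had -0.04 and 5730522E02Rik beside Fancl 0.10 (limma adjusted p = 0.879 and 0.771). 5730522E02Rik ran from 0.03 without WT 5 to 0.19 without WT 6. Fancd2os, Vrk2 and Rpl36-ps4 were low, at 0.230, 0.707 and 0.235 TPM in WT, and 1700019A02Rik was listed at 0.

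The start of Msh6 is shown because it held the most GC boxes of the set and Msh6 varied least, in its RefSeq window (GRCm38.p6, chr17:87974800-87975099, plus strand). Capitals mark matches to the motifs named above.
Msh6: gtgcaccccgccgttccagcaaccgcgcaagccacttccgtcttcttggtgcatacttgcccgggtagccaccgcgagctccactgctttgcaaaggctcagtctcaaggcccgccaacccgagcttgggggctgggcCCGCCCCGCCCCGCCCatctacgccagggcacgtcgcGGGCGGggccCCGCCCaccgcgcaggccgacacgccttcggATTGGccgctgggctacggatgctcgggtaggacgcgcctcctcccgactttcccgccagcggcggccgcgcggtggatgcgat
The window held 5 GC boxes, 3 of which overlap their neighbours by 1 base, and 1 CCAAT box. Its GC content was 71.7% with 37 CpG, the highest of the 7 genes of the set with a RefSeq window. Of these 7, 5 held a GC box, 3 a CCAAT box, 1 the E2F-type motif and 0 a TATA box. Over all 32851 windows the shares were 35.7%, 37.4%, 1.38% and 13.6%, in the same order.

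Other genes of these repair pathways did not pass the test. In 4 lists of other mismatch repair and resynthesis genes, other Fanconi pathway genes, crosslink and structure-specific nucleases, and repeat instability genes outside mismatch repair, 56 of 62 genes were tested and 0 passed (limma; 4 had an unadjusted p under 0.05, and the lowest adjusted p was 0.377). Over all tested genes 0.0268% passed and 11.9% had an unadjusted p under 0.05 (limma). The median log2 fold change over the 56 genes was 0.02, the same as over all tested genes. The low genes included Exo1, the mismatch repair exonuclease gene, at 0.207 TPM, the crosslink nuclease subunit gene Eme1 at 0.0831 TPM and the meiotic MutS gene Msh5 at 0.105 TPM in WT, and the meiotic gene Msh4 was listed at 0 in every library.

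Among 17 tested genes of mismatch repair and resynthesis, 11 had a higher and 6 a lower mean in KO, with a median of 0.04. Rfc3, a subunit gene of the clamp loader, was at 5.80 ± 1.90 TPM (SD, n = 7) in WT and 7.70 ± 1.60 TPM (SD, n = 8) in KO, a log2 change of 0.39 ± 0.16 (SE; limma adjusted p = 0.388) and each of the 8 KO libraries exceeded the WT mean. Rpa2 and Rpa3, subunit genes of the single-strand binding protein RPA, had 0.20 and 0.21 (limma adjusted p = 0.458 and 0.509). The 19 Fanconi genes had a median of 0.01. Slx4, the scaffold gene for crosslink nucleases, averaged 22.9 ± 2.45 TPM (SD, n = 7) and, in KO, 18.6 ± 4.64 TPM (SD, n = 8), a value of -0.32 ± 0.13 (SE; limma adjusted p = 0.388). Faap20, a core complex gene, had 0.26 and Fancg, another core complex gene, 0.14 (limma adjusted p = 0.437 and 0.581). Fancg was at 0.08 without KO 1 and KO 8.

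Of 11 tested nucleases, whose median was -0.02, the flap endonuclease gene Fen1 averaged 5.64 ± 0.554 TPM (SD, n = 7) and, in KO, 6.66 ± 0.800 TPM (SD, n = 8), a log2 change of 0.20 ± 0.08 (SE; limma adjusted p = 0.377). Eme2, a partner gene of Mus81, had 0.21, and Rbbp8, which encodes the end resection factor CtIP, -0.21 (limma adjusted p = 0.436 and 0.580). Without KO 3, Rbbp8 was at -0.08. Of 9 repeat instability genes, with a median of 0.07, the histone deacetylase gene Hdac2 had 0.12, the ribonucleotide reductase gene Rrm2b 0.16 and the oxidised guanine glycosylase gene Ogg1 0.18 (limma adjusted p = 0.413, 0.432 and 0.451). Several Fanconi and mismatch genes are known to be expressed with the cell cycle. Of 14 proliferation markers, 10 were under 1 TPM, including Mki67 at 0.272 TPM and Top2a at 0.0949 TPM, and Bub1 was listed at 0. Their summed level ran from 13 to 16.6 TPM in WT and from 14.7 to 21.6 TPM in KO, highest in KO 1, which is also the library with the highest Fancd2. The single markers did not all follow the sum. In KO 1, Mcm6 (7.25 TPM) and Ccna2 (3.38 TPM) were the highest of KO, and Top2a (0.0191 TPM) was the lowest. Mcm2 was highest in KO 3 (3.47 TPM), Mcm5 in KO 8 (5.26 TPM) and Mki67 in KO 4 (0.378 TPM). The part of these markers in the Fancd2 value was not tested.

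**Figure D5:**
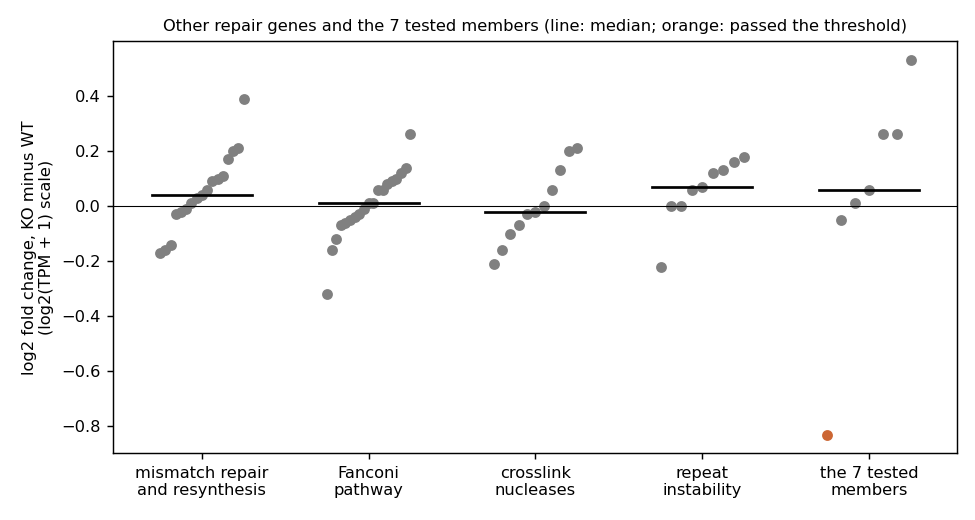
Log2 fold change of KO minus WT for each tested gene of the 4 other repair lists and for the 7 tested genes of the set, on the log2(TPM + 1) scale; lines are medians and orange marks a gene past the threshold. The 56 other repair genes lie between -0.32 and 0.39, and Fan1 at -0.83 stands below them.

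Across the 15 libraries the levels most like Fan1 on the log2(TPM + 1) scale were those of Nup155, a nuclear pore gene (Pearson r = 0.89), Mtmr10 (0.88), Myh11, a smooth muscle myosin gene (0.88), Otud7a (0.84) and Fbln5, an elastic fibre gene (0.83). These values include the difference between the groups. With each group's mean subtracted, the 5 highest were Gm42918 (0.86), Rasgrf2 (0.85), Gm17655 (0.84), Gm12795 (0.83) and Cpeb1 (0.83), and the genes deleted with Fan1 were not among them: Mtmr10 was at 0.06, Otud7a at -0.06, Chrna7 at -0.15 and Klf13 at -0.43. These values moved without KO 1 and KO 8, the lowest KO libraries for Fan1: over the other 13 libraries Gm42918 and Cpeb1 were at 0.66, Rasgrf2 at 0.63, Gm17655 at 0.59 and Gm12795 at 0.54. Of the deleted genes, Mtmr10 was then at -0.11 and Otud7a at -0.40. Of the set itself Pms1 was highest, at 0.42 and, over the 13 libraries, 0.41. Pms2 went from -0.26 to -0.71, and Msh3 and Fancd2 turned from -0.10 and -0.20 to 0.09 and 0.23. With 18655 genes compared over 15 libraries of the same tissue, these are descriptions without a test. Rasgrf2, a guanine exchange factor gene, happens to be the nearest coding gene beside the end of Msh3, 80215 bp away.

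Summed marker levels of other cell types overlapped between the groups. All 10 endothelial markers had a lower mean in KO, with summed levels of 194 to 299 TPM in WT and 135 to 235 TPM in KO, and 8 of 10 astrocyte markers did, with 1920 to 2570 TPM in WT and 1600 to 2170 TPM in KO; 0 of either list passed (limma; 9 and 7 had an unadjusted p under 0.05). Over all tested genes 11.9% had an unadjusted p under 0.05 (limma). The median log2 fold change was -0.49 for the endothelial and -0.27 for the astrocyte markers, against 0.02 over all tested genes. Summed microglia markers ran from 273 to 376 TPM in WT and from 299 to 350 TPM in KO, and oligodendrocyte precursor markers from 122 to 167 TPM and from 110 to 167 TPM. Their part in the values of the 8 genes was not tested.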

How the data were processed

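The authors deposited TPM values per Ensembl gene ID and library. The submitters' processing notes name Trimmomatic, HISAT2, StringTie and mm10; tool versions, annotation and strand setting were not stated. Because TPM sums are constant (999789 to 999899 here), a rise in abundant transcripts lowers the others. GENCODE M21 symbols matched 54723 of 54838 IDs, and 102 rows sharing a symbol were merged by summing. The 18656 genes averaging 1 TPM or more were tested on log2(TPM + 1), KO minus WT, with limma 3.58.1 in R 4.3.3 (intensity trend, two-sided, Benjamini-Hochberg at 0.05). Low genes change more than this scale shows. The 4 ratios were compared by exact permutation over 6435 splits (scipy 1.17.1). The limma fit was tested on simulated data.

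The genes, lists and tests were chosen with earlier results of these data known. Besides the 8 genes, those named were the deleted genes, the nearest coding gene on each side (1 is not reported here), the 3 lowest-p genes of each repair list and the 5 genes most like Fan1. Gm20457, Exo1, Eme1, Msh4, Msh5, Mki67, Top2a and Bub1 were named after their values were seen. Alternatives were pseudocounts of 0.1 and 0.5, no filter, a filter at 5 TPM, 2 other scalings, array weights, 2 other variance priors, a replicate block, leaving out single libraries or both KO 1 and KO 8, and keeping the highest row of a shared symbol. Correlations with Fan1 without KO 1 and KO 8 were added after seeing the data.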

Additional observations from a re-analysis of the deposited data

Results flagged for a closer look

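Of 78 groups of values examined for a library far from the others, 1 stood out, where chance alone gives about 1 in 20. Rfc3, the clamp loader subunit gene, was at 11.5 TPM in KO 1 against 7.79 TPM in the next highest KO library, a gap of 0.714 of the group's range. KO 1 is also the library with the highest Fancd2 level and the highest sum of proliferation markers. It was the highest KO library for other genes as well, among them Hdac3 (93.9 TPM), Slc17a7 (1350 TPM) and Emc3 (69.6 TPM). For Gad1 (118 TPM) and Slc1a2 (298 TPM) it was the lowest.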

How the results depend on the processing

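Fan1 kept its direction in 26 of 26 other fits and its call in 25, among them the 15 without 1 library (-0.87 to -0.77, limma adjusted p = 0.00685 to 0.0325). The replicate block ended the call (-0.77, limma adjusted p = 0.0946) and raised the genes past the threshold from 5 to 8. The labels do not say whether equal numbers pair the libraries. With group means subtracted, same-number correlations were -0.043 to 0.122, 1 of 7 above 0.1. Of the WT libraries, 1 correlated best with its own number. Low correlations cannot exclude a pairing. A filter at 5 TPM drops Fan1, Pms1, Fancd2 and Fanci. The count of genes past the threshold was 5 to 6 without 1 library, and 0 other repair genes passed. Without 1 library, log2 changes ran from 0.21 to 0.33 for Pms1, -0.12 to 0.05 for Pms2, -0.03 to 0.04 for Msh3, 0.03 to 0.09 for Msh6, 0.41 to 0.66 for Fancd2, -0.20 to -0.03 for Fanci and 0.19 to 0.35 for Fancl, with 0 calls. For neighbours they ran from -0.00091 to 0.12 (Mphosph10), -0.12 to 0.36 (Gm42421), -0.05 to 0.01 (Fbxo11), -0.03 to 0.02 (Emc3), -0.09 to 0.02 (Rlbp1), 0.03 to 0.19 (5730522E02Rik) and -0.11 to 0.01 (Polg). For ratios they ran from -0.17 to 0.05 (Fan1 relative to the other tested deleted genes), 0.23 to 0.45 (Pms1 relative to Pms2), -0.09 to -0.02 (Msh3 relative to Msh6) and 0.45 to 0.75 (Fancd2 relative to Fanci). Values near 0 turned sign. Without KO 1 and KO 8, Pms2 was 0.01, Msh3 -0.02, Fbxo11 0.03, Emc3 -0.04, Rlbp1 0.09 and the Fan1 ratio 0.13. Under median-of-ratios scaling Msh3 and Emc3 were -0.01, under quantile normalization -0.00036 and -0.02, and with array weights both -0.02 (Rlbp1 0.01). With the replicate block Fbxo11 and Polg were 0.01, Emc3 -0.0035, Rlbp1 0.02 and the Fan1 ratio 0.05, and at a pseudocount of 0.5 the Fan1 ratio was 0.12. Fancd2 relative to Fanci lost its call at a pseudocount of 0.1 (0.97), without KO 1 and KO 8 (0.41) and with the replicate block (0.63, adjusted exact p = 0.188). The cause was not tested. TPM keeps no depth, so counting error cannot be given for low genes such as Fanci.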
